A study of Mus musculus with 2 samples.

Results

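The genes examined here were 8 of the 32285 measured genes, chosen by name for their part in cholesterol synthesis and its control: Hmgcs1, Idi1, Fdft1, Sqle, Lss, Cyp51, Insig1 and Srebf2. The choice was made with earlier results of these data known. The 8 genes were followed in the cancer cells, macrophages, monocytes and T cells of tumors grown from RM-1, a mouse prostate cancer line. All 8 are enzymes or regulators of synthesis, so the uptake genes named beside them come from separate lists. In short, the summed level of the 8 genes was 1.18-fold higher in the cancer cells of the enzalutamide-treated tumor than in those of the control tumor, and Sqle had the highest ratio of the 8 (1.33). Within each tumor, dividing cancer cells held more of these transcripts than cancer cells without dividing-cell transcripts. Cyp51 was lower in cancer cells than in all 3 immune classes, whereas Hmgcs1, Sqle, Lss, Fdft1 and Srebf2 were highest in cancer cells. The share of all genes that were highest in cancer cells was not counted.

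Cells make cholesterol from acetyl-CoA through the mevalonate pathway, in which mevalonate is turned into isoprenoid units, these are joined into squalene, and squalene is closed into lanosterol and trimmed to cholesterol. When sterols in the endoplasmic reticulum run low, SCAP carries the transcription factor SREBP2, encoded by Srebf2, to the Golgi, where it is cut and released to switch on the genes of cholesterol synthesis and lipoprotein uptake. INSIG proteins hold SCAP back when sterols are plentiful, and macrophages are known for taking in lipoproteins and exporting cholesterol through ABC transporters. In the prostate, cholesterol is also a precursor of steroid hormones, and enzalutamide (ENZ) is an antagonist of the androgen receptor.

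RM-1 cells had been placed in the prostate of C57BL/6 mice, and the tumor of 1 mouse given vehicle (control) and of 1 mouse given ENZ was dissociated, each yielding 1 droplet scRNA-seq library. Both groups carried wild-type RM-1 cells, a single line that the study used as a model of intrinsic ENZ resistance, and immune cells were enriched during sorting, so the shares of the classes depend on that step. The control library held 170830346 unique molecular identifiers (UMIs, which count molecules) and the ENZ library 162030149. With 1 library and 1 mouse a group there is no replicate and no test between groups, and every 95% interval below covers counting error only.

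Barcodes with at least 1000 UMIs and at most 20% mitochondrial UMIs were kept, 12253 in the control against 10271 in the ENZ library, and 39 barcode sequences occurred in both. Cancer cells were those with at most 1 UMI of Ptprc, the CD45 gene, and at least 5 UMIs of Cacna2d1, Rbfox2, Kif21a and Rhox5 together. This gave 4006 cancer cells in the control (median 21024 UMIs) and 4469 in ENZ (median 22115). Marker gates also gave 1432 and 756 macrophages, 281 and 682 monocytes, and 435 and 584 T cells, with no barcode in more than 1 of the 4 classes. A further 4971 control and 3295 ENZ barcodes fell in none of the 7 gates built and were not used.

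The labels were checked against other markers. Krt8, an epithelial keratin, had 434 CPM (counts per 1000000 UMIs of the class) in control and 506 CPM in ENZ cancer cells, and at least 1 UMI of Krt8 or Krt18 was seen in 91.3% and 94.3% of them. The epithelial adhesion gene Epcam, by contrast, was near 3 CPM in the cancer cells of both libraries and higher in T cells, so it does not mark these cells. Of the fibroblast markers, the collagen gene Col3a1 was the most abundant in cancer cells, at 525 and 522 CPM, and the 5 markers summed to 997 and 960 CPM, whereas 3 or more UMIs of Dcn, a fibroblast proteoglycan gene, were seen in 1.75% and 2.01% of the cells. The mannose receptor gene Mrc1 had 592 and 1115 CPM in macrophages, and the T cell receptor gene Trbc2 had 595 and 520 CPM in T cells. The lysozyme gene Lyz2 had 6962 and 3843 CPM in monocytes but also 5265 and 3268 CPM in macrophages, so it does not separate these 2 classes. Endothelial markers in cancer cells summed to 39.7 and 39.2 CPM. In macrophages Krt8 stood at 3.30% of its cancer level in the control against 6.02% in the ENZ library.

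The members lie on 5 chromosomes of GRCm38 in the GENCODE M21 annotation. On the plus strand are Hmgcs1 (ENSMUSG00000093930, chr13:119690379-119708260), Idi1 (ENSMUSG00000058258, chr13:8885501-8892451), Sqle (ENSMUSG00000022351, chr15:59315077-59331192), Lss (ENSMUSG00000033105, chr10:76531588-76557138), Insig1 (ENSMUSG00000045294, chr5:28071363-28078662) and Srebf2 (ENSMUSG00000022463, chr15:82147181-82205379). On the minus strand are Fdft1 (ENSMUSG00000021273, chr14:63145150-63179578) and Cyp51 (ENSMUSG00000001467, chr5:4081145-4104746).

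Sequence before the start of 6 of the 8 members was at hand in the RefSeq table for GRCm38.p6, and 3 are shown: Hmgcs1 and Srebf2, where a sterol regulatory element was matched, and Insig1, the one with an E-box. Windows of 250 bases before the RefSeq start were searched on both strands for TCACNCCAC (a sterol regulatory element), its shorter form TCACNCCA, CCAAT (bound by NF-Y), GGGCGG (bound by SP1) and CACGTG (an E-box). The longer sterol element contains the shorter one. Capitals mark matches, read 5′ to 3′ on the strand of the gene, and the printed part stops before the first annotated transcript of either annotation. They are chr13:119690101-119690350, chr15:82147019-82147180 and chr5:28071162-28071362, all on the plus strand.
Hmgcs1: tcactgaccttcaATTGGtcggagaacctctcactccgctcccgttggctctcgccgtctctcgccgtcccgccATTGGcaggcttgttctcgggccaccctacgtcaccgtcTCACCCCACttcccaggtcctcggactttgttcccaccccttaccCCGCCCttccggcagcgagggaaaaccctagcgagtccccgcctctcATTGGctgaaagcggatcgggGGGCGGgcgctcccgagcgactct
Srebf2: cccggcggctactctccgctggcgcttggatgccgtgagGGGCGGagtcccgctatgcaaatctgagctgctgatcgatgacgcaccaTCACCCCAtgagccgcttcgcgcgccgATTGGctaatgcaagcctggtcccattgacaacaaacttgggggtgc
Insig1: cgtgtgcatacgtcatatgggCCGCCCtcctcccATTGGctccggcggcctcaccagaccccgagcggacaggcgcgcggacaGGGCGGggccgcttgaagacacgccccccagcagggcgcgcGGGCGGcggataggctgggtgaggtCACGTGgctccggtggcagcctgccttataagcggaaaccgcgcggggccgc
The longer sterol element was found in 1 of the 6 members, Hmgcs1, where it lay from -137 to -129, against 1.05% of the 32851 promoter windows of the table. The shorter form was found in 2 of 6, Hmgcs1 and Srebf2, against 3.67% of windows. CCAAT was found in 6 of 6, against 33.8%, and GGGCGG in 6 of 6, against 32.7%. CACGTG was found in 1 of 6, Insig1, against 6.02%. These are matches of letters in a window and say nothing of binding in these tumors.

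The first question was whether cancer cells from the ENZ-treated tumor differed from control cancer cells in these genes. Srebf2, which encodes the pathway's transcription factor, measured 101 CPM in control against 122 CPM in the ENZ library (ratio 1.21, 95% interval 1.18 to 1.24). Insig1, which encodes a sterol-sensing brake on that factor, had 36.9 and 44.3 CPM, a ratio of 1.20 (1.15 to 1.251). Both intervals lay above 1, but neither gene was 25% higher.

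Hmgcs1, whose enzyme makes HMG-CoA at the head of the pathway, measured 93.3 CPM in control against 106 CPM in ENZ cancer cells (ratio 1.14, 1.11 to 1.17). Idi1, whose enzyme interconverts the isoprenoid units, had 38.8 and 42.3 CPM, a ratio of 1.09 (1.05 to 1.14). Fdft1, which encodes squalene synthase, had 40.4 and 41.6 CPM, a ratio of 1.03 (0.987 to 1.07) whose interval spans 1. Over all cancer cells as summed CPM, these early enzymes had the lowest ratios of the 8. That order did not hold without dividing cells, where Insig1 (log2 0.26) lay below Hmgcs1 (0.30) and Idi1 (0.28), nor by averaging the CPM of single cells. In cells with no UMI of the dividing-cell genes, Hmgcs1 (0.66) and Idi1 (0.45) lay above Srebf2 (0.42) and Lss (0.40), while Fdft1 (0.23) was lowest.

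Sqle, which encodes squalene epoxidase, a rate-limiting step after squalene, measured 43.2 CPM in control against 57.5 CPM in ENZ cancer cells (ratio 1.33, 1.28 to 1.38). Lss, whose enzyme closes the ring to lanosterol, had 8.88 and 11.2 CPM, a ratio of 1.26 (1.15 to 1.37). Cyp51, which encodes the demethylase acting on lanosterol, had 31.2 and 39.0 CPM, a ratio of 1.252 (1.20 to 1.31). These 3 genes act in direct succession from squalene, and they were the 3 members at least 25% higher in ENZ, the size rule used here in place of a test (at least 20% for lower levels).

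Summed over the 8 genes, the level was 394 CPM in control against 464 CPM in ENZ cancer cells (ratio 1.18, 1.16 to 1.19). Of the 8592 genes with a mean of at least 10 CPM in these cells, 5.21% were higher by the same rule and 4.05% lower. Thus 3 of 8 members stood beside a background of about 1 gene in 20. The members were chosen with earlier results of these data known, so this is a description only. All 8 ratios were above 1 as CPM, but that of Fdft1 fell just below 1 (log2 -0.01) when the libraries were scaled by median-of-ratios. The median log2 ratio was 0.27 over the members and 0.05 over all genes tested. With median-of-ratios scaling, or among cells with a Krt8 or Krt18 UMI alone, 1 member, Sqle, stayed past the rule, and Lss and Cyp51 fell short of it. Cyp51 also fell short with a cancer gate of 10 UMIs and by averaging the CPM of single cells. The share of all genes past the rule was not counted under these settings. Without dividing cells, where Lss was under 10 CPM and not tested, 3 of 7 members passed (Sqle, Cyp51 and Srebf2), beside 5.61% of 8519 genes higher and 6.26% lower. In cells with no UMI of the dividing-cell genes 6 of 7 passed, all those tested but Fdft1, beside 9.33% of 8510 genes higher and 8.66% lower.

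Other measures differed between the libraries in the same cells. A list of genes of the dissociation and heat shock response summed to 6915 CPM in control and 4470 CPM in ENZ cancer cells. Of its 12 genes, 11 were lower and none higher, beside 4.05% and 5.21% of all genes. The most abundant gene of that list in these cells was Junb. A list of 9 genes named rRNA-like here (Gm42418, AY036118, Lars2, Cmss1, Gphn, Filip1l, Cdk8, Camk1d and Gm19951) summed to 16070 and 38970 CPM, with Gm42418 the most abundant. Of the 9 genes, 8 were higher and none lower, beside 5.21% and 4.05% of all genes. Whether the reads of these genes come from ribosomal RNA was not tested. Leaving mitochondrial, ribosomal protein and rRNA-like genes out of the denominator left the summed log2 ratio within its counting interval. Whether tissue handling plays a part in the ratios was not tested.

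The rest of the pathway did not differ in one direction. Of 18 cholesterol synthesis genes, 15 had a mean of at least 10 CPM in cancer cells, 4 of these were higher and 2 lower in the ENZ library, beside 5.21% and 4.05% of all genes, and their median log2 ratio was 0.13. Besides Sqle, Lss and Cyp51, the higher gene was Hsd17b7 (9.06 and 12.5 CPM, ratio 1.37), which acts late in the pathway. Msmo1 (1.13) and Sc5d (1.18), a pair of late sterol enzymes, also had ratios above 1.

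The 2 lower genes were Fdps and Pmvk. Fdps, which encodes farnesyl diphosphate synthase, between Idi1 and Fdft1 in the pathway, measured 203 CPM in control against 140 CPM in ENZ cancer cells (ratio 0.690, 0.675 to 0.704). Pmvk, which encodes a mevalonate-phosphate kinase, had 56.5 and 42.7 CPM, a ratio of 0.756. Ebp (0.811), Acat2 (0.817) and Nsdhl (0.913) lay below 1 without passing the rule, as did Dhcr7 (0.971), whose interval spans 1. Fdps was also lower in the ENZ library in macrophages (0.702), monocytes (0.627) and T cells (0.633).

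Ratios across all genes differed with the length of the gene. In cancer cells the median log2 ratio was -0.10 over 1835 genes spanning under 10000 bases of the genome, 0.05 over 4006 genes of 10000 to 50000 bases and 0.12 over 2747 longer genes. Fdps spans 8372 bases and Ebp 8184, whereas Pmvk spans 14473. Among the members, Idi1 (6951 bases) and Insig1 (7300) span under 10000 bases, and both had ratios above 1. Srebf2 (58199 bases) is among the longer genes and had a ratio of 1.21. The other members span 10000 to 50000 bases. The part of gene length in these ratios was not tested.

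None of the 7 genes of SREBP control passed the rule in cancer cells, where 5.21% of all genes were higher and 4.05% lower. Srebf1, which encodes the related factor for fatty acid genes, had 24.7 and 30.6 CPM, a ratio of 1.24 (1.18 to 1.30). Scap (1.10) and the proteases Mbtps1 (1.11) and Mbtps2 (1.12) had ratios above 1, and Insig2 had a ratio of 0.938. None of the 8 uptake and intracellular transport genes passed either, beside the same shares. The receptor genes Vldlr (1.19) and Lrp1 (1.08), the receptor ligase gene Mylip (1.11) and the sterol carriers Npc1 (1.22) and Stard4 (1.07) had ratios above 1. Scarb1 (0.924), Npc2 (0.890) and Lipa (0.938), for an HDL receptor, a lysosomal carrier and a lysosomal lipase, had ratios below 1.

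**Figure D1:**
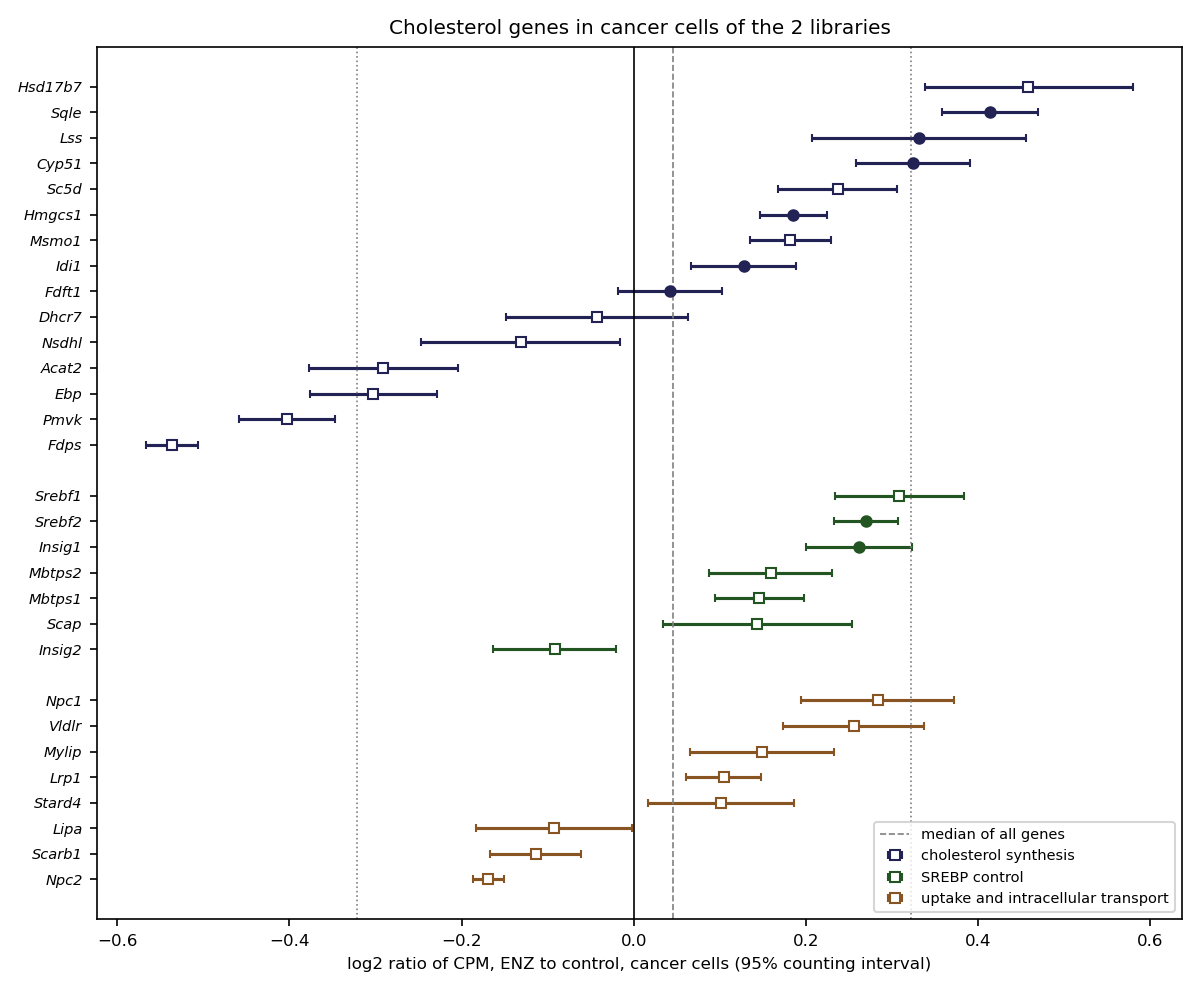
Log2 ratio of CPM, ENZ to control, in cancer cells for the synthesis, SREBP control and uptake genes with a mean of at least 10 CPM; filled circles are the 8 members, open squares other genes, bars 95% counting intervals, the dashed line the median of all genes and the dotted lines the size rule. The members lie between Fdft1 (1.03) and Sqle (1.33), while Fdps (0.690) and Pmvk (0.756) sit beyond the lower dotted line.

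The second question was where each member stood across cell classes. Hmgcs1 was highest in cancer cells, at 93.3 CPM in the control library, where macrophages had 29.96, T cells 29.1 and monocytes 23.1 CPM. Its order was the same in the ENZ library (106, 54.2, 38.5 and 35.3 CPM), and cancer cells exceeded macrophages 3.12-fold (2.80 to 3.47) in the control and 1.959-fold (1.75 to 2.20) in the ENZ library. The intervals of the ratios between T cells and monocytes spanned 1 in both libraries, so those classes are not ordered, and macrophages and T cells were separated in the ENZ library alone.

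Sqle, Lss, Fdft1 and Srebf2 were likewise highest in cancer cells in both libraries. For Sqle the control levels were 43.2 CPM in cancer cells, 15.1 in macrophages, 10.3 in T cells and 8.73 in monocytes, and the ENZ levels 57.5, 23.9, 16.7 and 19.8 CPM. For Lss the control levels were 8.88, 2.73, 1.71 and 1.87 CPM in the same order, where T cells rest on 4 UMIs and monocytes on 3. For Fdft1 cancer cells stood at 40.4 CPM and the immune classes between 17.5 and 25.6 CPM in the control library. Srebf2 stood at 101 CPM in control cancer cells and between 62.0 and 67.9 CPM in the immune classes, and at 122 CPM against 87.6 to 92.2 CPM in the ENZ library. For all 4 genes no pair of neighbouring immune classes was separated by its counting interval in either library.

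Cyp51 had another order. In the control library it stood at 31.2 CPM in cancer cells, 59.9 in T cells, 92.4 in macrophages and 103 in monocytes, and in the ENZ library at 39.0, 86.3, 94.7 and 123 CPM. Cancer cells therefore held 0.337 (0.315 to 0.361) of the macrophage level in the control against 0.412 (0.376 to 0.452) in the ENZ library. Cyp51 made up 7.91% of the summed UMIs of the 8 genes in control cancer cells and 30.7% in control macrophages. Barcodes of 10 to 100 UMIs, which hold mostly free RNA, had 30.8 and 42.4 CPM of Cyp51, below all 3 immune classes of the same library.

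Idi1 and Insig1 were highest in monocytes. Idi1 stood at 61.7 CPM in control monocytes, 45.7 in macrophages, 39.4 in T cells and 38.8 in cancer cells, and the last 2 were not separated in either library. Insig1 stood at 45.5 CPM in control monocytes, 36.9 in cancer cells and 34.9 in macrophages, none of which was separated from its neighbour, and lower, at 18.4 CPM, in T cells. In the ENZ library monocytes (58.1 CPM) exceeded macrophages (44.7 CPM), which matched cancer cells (44.3 CPM) within counting error.

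**Figure D2:**
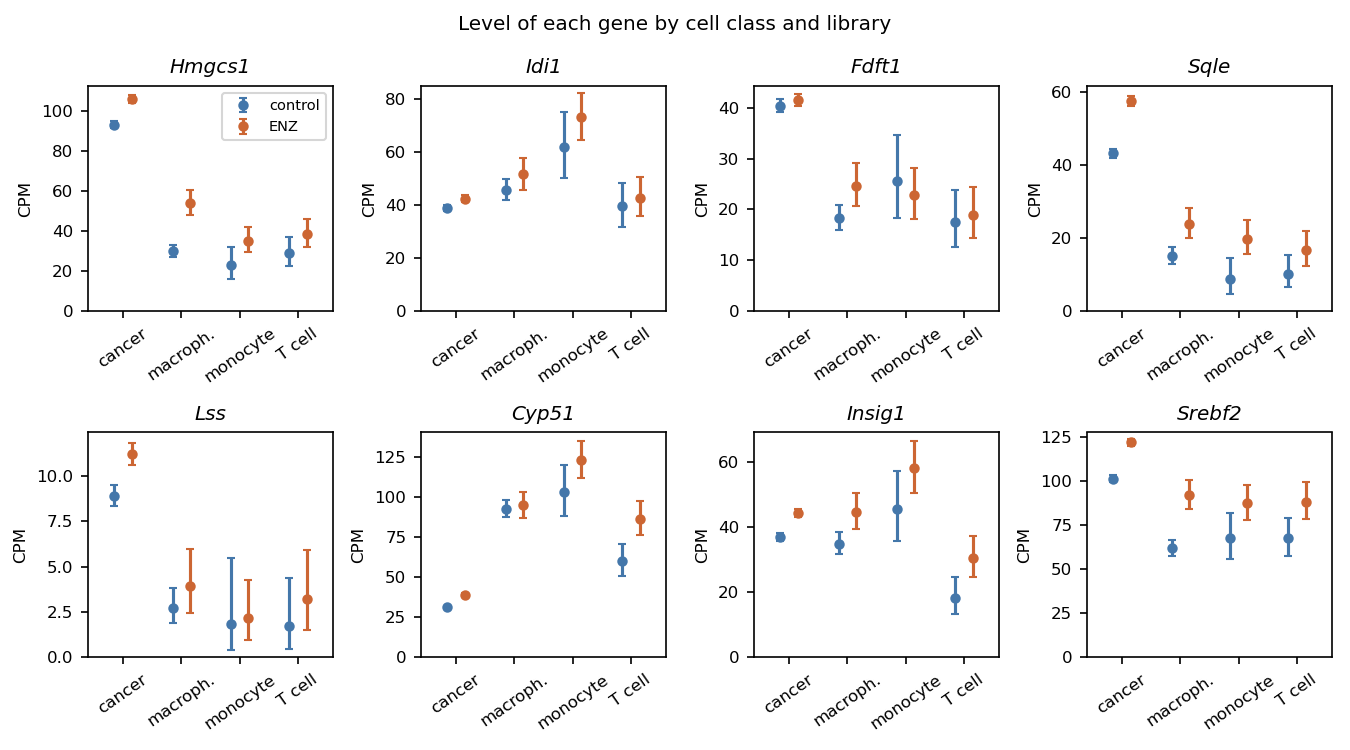
CPM of each member (y axis, from 0, own scale for each gene) in cancer cells, macrophages, monocytes and T cells of the control (blue) and ENZ (orange) library, with 95% Poisson intervals. Hmgcs1, Fdft1, Sqle, Lss and Srebf2 are highest in cancer cells, while Cyp51 is lowest there, at 31.2 and 39.0 CPM.

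By a rule of 2-fold, 3 of the 7 members with a mean of at least 10 CPM (Hmgcs1, Sqle and Fdft1) were higher in cancer cells than in macrophages of the control library, beside 30.1% of 8744 genes, and 1 (Cyp51) was lower, beside 17.5%. In the ENZ library 1 of 7 (Sqle) was higher, beside 24.9% of 8843 genes, and 1 (Cyp51) lower, beside 17.5%. The shares of members thus lay on both sides of those of all genes. The median log2 ratio of cancer cells to macrophages was 0.71 over the members and 0.43 over all genes in the control library. In the ENZ library these medians were 0.41 and 0.32, so genes in general also tended to be higher in cancer cells.

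Cells of different depth were compared after thinning each to 5000 UMIs, which left out 54 of 4006 control cancer cells and 364 of 1432 control macrophages. Cyp51 then had a UMI in 11.4% (10.4 to 12.4) of control cancer cells and 31.6% (28.8 to 34.4) of control macrophages, against 37.0% and 42.5% before thinning. Hmgcs1 had a UMI in 24.5% (23.2 to 25.9) of the cancer cells and 12.5% (10.6 to 14.7) of the macrophages, against 54.5% and 18.8% before thinning. As a measure of free cancer RNA, Krt8 had a UMI in 63.9% of thinned cancer cells and 7.40% of thinned macrophages. The classes had median depths of 21024 and 7454 UMIs before thinning.

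The ENZ and control libraries were next compared in the immune classes. Summed over the 8 genes, macrophages measured 301 CPM in control against 390 CPM in the ENZ library (ratio 1.29, 1.23 to 1.37). Monocytes had 337 and 422 CPM, a log2 ratio of 0.32 (0.18 to 0.47), and T cells 244 and 325 CPM, a ratio of 1.33 (1.20 to 1.48). In neutrophils (148 and 182 CPM, ratio 1.23, 0.992 to 1.51) and NK cells (171 and 174 CPM, ratio 1.02, 0.839 to 1.24) the intervals spanned 1. In NK cells Idi1 was lower in the ENZ library (20.4 and 8.67 CPM, ratio 0.424, 0.171 to 0.924), on 38 and 8 UMIs. The higher sum in the ENZ library was thus not confined to cancer cells.

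In macrophages Hmgcs1 measured 29.96 CPM in control against 54.2 CPM in the ENZ library (ratio 1.81, 1.55 to 2.11). Sqle (1.58), Srebf2 (1.49), Fdft1 (1.35) and Insig1 (1.28) also passed the rule, which made 5 of the 7 members tested, beside 30.4% of 7892 genes higher and 11.4% lower. Insig1 fell short of the rule under median-of-ratios scaling (log2 0.27), and Insig1 (0.27) and Fdft1 (0.16) did so by averaging the CPM of single cells. Cyp51 had 92.4 and 94.7 CPM in macrophages, a ratio of 1.02 (0.922 to 1.14) that fell below 1 under median-of-ratios scaling and by averaging the CPM of single cells. Among the other genes of SREBP control, Mbtps1, Srebf1, Scap and Mbtps2 were higher, so that 6 of 7 passed. The median log2 ratio of all genes in macrophages was 0.15, above that in cancer cells. Krt8 in macrophages was 14.3 CPM in the control against 30.5 CPM in the ENZ library, and the dissociation list summed to 12702 and 9340 CPM. The rRNA-like list summed to 38980 and 99388 CPM in macrophages, and the dividing-cell genes to 184 and 273 CPM. Barcodes of 10 to 100 UMIs had 48.9 CPM (control) and 68.7 CPM (ENZ) of Hmgcs1, above the macrophage levels, and 28.7 and 40.8 CPM of Sqle. Subtracting from each cell the mean counts of such a barcode left the summed log2 ratio within its counting interval. Macrophages had median depths of 7454 and 6805 UMIs, so this step removed little and cannot show how much free RNA was present. The part of cancer RNA or of tissue handling in the ratios of single genes was not tested.

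The ratio for Hmgcs1 was 1.59-fold (1.36 to 1.86) larger in macrophages than in cancer cells, with an interval for counting error. The same quotient was 1.31 (1.06 to 1.63) for Fdft1 and 1.23 (1.10 to 1.38) for Srebf2, and 0.818 (0.731 to 0.916) for Cyp51. For Idi1, Sqle, Lss and Insig1 the interval spanned 1. Over the sum it was 1.10 (1.04 to 1.16) in macrophages, 1.06 (0.961 to 1.17) in monocytes and 1.13 (1.02 to 1.26) in T cells. That of macrophages did not hold by averaging the CPM of single cells, where the summed log2 ratio was 0.26 in macrophages and 0.27 in cancer cells. In cancer cells with no UMI of the dividing-cell genes the summed log2 ratio was 0.50, above the 0.37 of macrophages and the 0.42 of T cells. Macrophages with a UMI of Mmp12, a macrophage elastase gene, made up 45.7% of the control and 33.3% of the ENZ macrophages, and without them the summed log2 ratio was 0.46, against 0.37 with them.

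In monocytes 4 of 7 members passed the rule, all higher, beside 24.1% of 7350 genes higher and 21.5% lower. With the marker sum of the gate doubled, Srebf2 fell short (log2 0.17) and Cyp51 passed (0.57). Under the gate as reported, Insig1 passed with an interval that spanned 1 (ratio 1.28, 0.974 to 1.69). Sqle measured 8.73 CPM in control against 19.8 CPM in ENZ monocytes, a ratio of 2.27 (1.27 to 4.36) that rests on 14 control UMIs. Fdft1 had 25.6 and 22.8 CPM, a ratio of 0.892 (0.607 to 1.33). In T cells 5 of 7 passed, all higher, beside 26.1% of 7944 genes higher and 16.2% lower. For 2 of these the interval spanned 1, Hmgcs1 (ratio 1.32, 0.975 to 1.81) and Sqle (1.62, 0.984 to 2.76). Insig1 had 18.4 and 30.5 CPM in T cells, a ratio of 1.66 (1.14 to 2.43), and Cyp51 had 59.9 and 86.3 CPM, a ratio of 1.44 (1.17 to 1.78). The 5 genes passing in T cells and the 5 in macrophages differed, since Cyp51 passed in T cells and Fdft1 did not. Srebf2 fell short in T cells under median-of-ratios scaling (log2 0.31), and Idi1 passed there with the marker sum doubled (0.33).

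The members also varied among the cancer cells of each tumor. Cells were called dividing when they held at least 3 UMIs of Mki67, Top2a, Cenpf, Ccnb1, Ube2c and Birc5 together, and were compared with cells that held none. Dividing cells were 50.9% of control cancer cells (2040 cells) and 44.9% of ENZ cancer cells (2006 cells), and cells with none numbered 876 and 1029. Summed over the 8 genes, the level was 444 CPM in dividing and 242 CPM in other control cells, a ratio of 1.83 (1.77 to 1.90). In the ENZ library it was 529 and 342 CPM, a ratio of 1.55 (1.51 to 1.59).

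Idi1 and Hmgcs1 had the largest ratios of dividing to other cells. Idi1 stood at 47.6 and 16.6 CPM in the control library, a ratio of 2.88 (2.51 to 3.31), and at 53.1 and 22.6 CPM in the ENZ library (ratio 2.35, 2.11 to 2.61). Hmgcs1 stood at 109 and 43.2 CPM in the control library, a ratio of 2.52 (2.31 to 2.75), and at 125 and 68.4 CPM in the ENZ library (ratio 1.83, 1.72 to 1.94). Sqle followed, with ratios of 2.28 and 1.73. Srebf2 had the smallest, 1.36 and 1.22.

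By the 25% rule, 7 of 7 members tested were higher in dividing cells of the control library, beside 23.5% of 8647 genes higher and 23.7% lower. In the ENZ library 7 of 8 were higher, all but Srebf2, beside 23.4% of 8591 genes higher and 20.2% lower. Of the synthesis list, 12 of 13 genes tested were higher in the control and 15 of 15 in the ENZ library. Fdps (2.50 and 2.34) and Msmo1 (2.28 and 1.81) were among the other pathway genes past the rule. The fatty acid desaturase gene Scd2 was not, with ratios of 1.07 and 0.941.

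Dividing cells were also deeper, with a median of 28374 UMIs against 14036 in the control library and 29963 against 15382 in the ENZ library. Restricted to cells of 15000 to 30000 UMIs, a limit chosen after the values were seen, the summed ratio was 1.67 (1.58 to 1.76) in the control against 1.41 (1.36 to 1.47) in the ENZ library. In that range 6 of 7 members were higher in the control library, beside 19.4% of 8650 genes, and 6 of 8 in the ENZ library, beside 17.1% of 8559 genes. Synthesis genes past the rule there were 11 of 13 tested in the control and 12 of 15 in the ENZ library. Depth within that range still differed between the groups of cells, with medians of 22939 and 19296 UMIs in the control library.

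**Figure D3:**
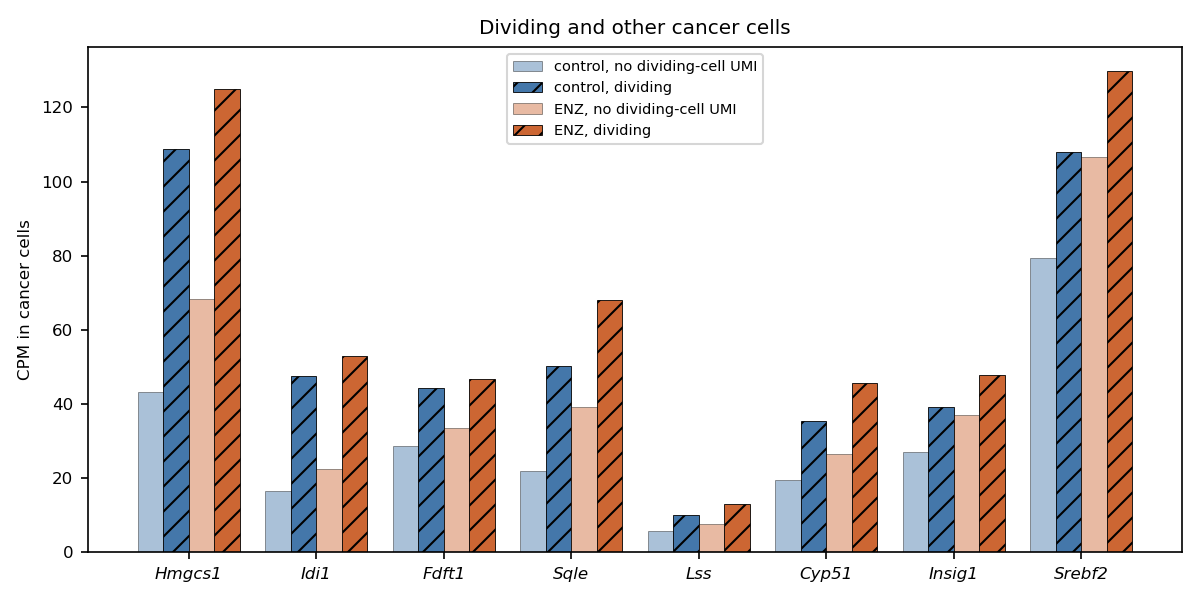
CPM of each member (y axis, from 0) in dividing cancer cells (hatched, full colour) and in cancer cells with no UMI of the dividing-cell genes (pale) of the control (blue) and ENZ (orange) library. The hatched bar is the taller one for every gene in both libraries, from 109 against 43.2 CPM for Hmgcs1 to 108 against 79.5 CPM for Srebf2 in the control library.

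The contrast between libraries was larger in cells without dividing-cell UMIs. There the summed ENZ to control ratio was 1.41 (1.35 to 1.47), against 1.19 (1.17 to 1.21) in dividing cells, a quotient of 1.18 (1.13 to 1.24). Hmgcs1 had a ratio of 1.58 (1.43 to 1.75) in the former and 1.15 (1.11 to 1.18) in the latter, and Sqle 1.79 (1.56 to 2.06) and 1.36 (1.30 to 1.42). For Fdft1, Lss, Cyp51 and Insig1 the interval of the quotient spanned 1. Dividing cells were a smaller share of the ENZ cancer cells, and the ratio over all cancer cells was 1.18. Of the 6 dividing-cell genes themselves, Ube2c (0.797) and Birc5 (0.786) were lower in the ENZ library and none was higher, beside 4.05% and 5.21% of all genes over all cancer cells.

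Single cells held few of these transcripts. Thinned to 5000 UMIs, the mean summed count of the 8 genes was 1.76 UMIs in 3952 control cancer cells and 2.14 UMIs in 4402 ENZ cancer cells. No UMI of any member was seen in 30.2% of the control and 23.5% of the ENZ cells. The variance was 2.29 and 2.31 times the mean, above the value of 1 for counts that vary by sampling alone. In 20 bins of UMIs per cell, the level of the ENZ library was the higher one in 20 of 20. The bins are parts of the same libraries and are not repeats. Matching the libraries over these bins gave 395 CPM in control and 463 CPM in ENZ.

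**Figure D4:**
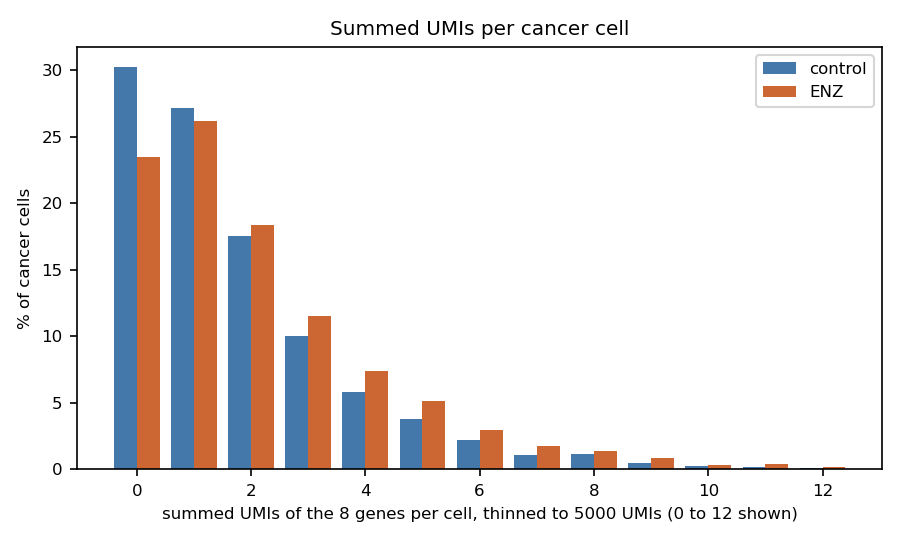
Share of cancer cells (y axis, %) by summed UMIs of the 8 genes per cell after thinning to 5000 UMIs (x axis), for the control (blue) and ENZ (orange) library. The ENZ cells have the smaller share at 0 (23.5% against 30.2%) and the larger share at each value plotted from 2 to 12 UMIs.

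Across thinned cancer cells, each member varied with the sum of the other 7. Pearson's r ranged from 0.10 for Lss to 0.28 for Hmgcs1 over the 3952 control cells, and from 0.13 to 0.32 for the same genes over the 4402 ENZ cells. These are descriptions over cells of 1 library each, at the same depth, and Lss is the least counted of the 8. Among 3494 other genes ranked, each with a mean of at least 50 CPM, the 10 most alike in both libraries began with 2 genes of cholesterol synthesis. Fdps ranked first (r of 0.29 in the control against 0.35 in the ENZ library), followed by Msmo1 (0.29 and 0.30).

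The next 8 were Ifrd1, Ncl, Ptma, H2afz, Eif5a, Hsp90ab1, Hmgb1 and Ybx1, abundant genes that include a nucleolar protein, a histone variant, a translation factor and a chaperone. Their lower r of the 2 libraries ran from 0.23 for Ifrd1 to 0.19 for Ybx1. The median r of all ranked genes was 0.01 in each library, and the 95th percentile was 0.10 in the control against 0.11 in the ENZ library. Fasn, for fatty acid synthase, ranked 24 and Acly, for ATP citrate lyase, ranked 31, whereas the lipoprotein receptor gene Lrp1 ranked 3342. Fdps was therefore the ranked gene that varied most with the members from cell to cell. Its ENZ to control ratio in cancer cells was nevertheless 0.690, against 1.18 for the summed members.

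**Figure D5:**
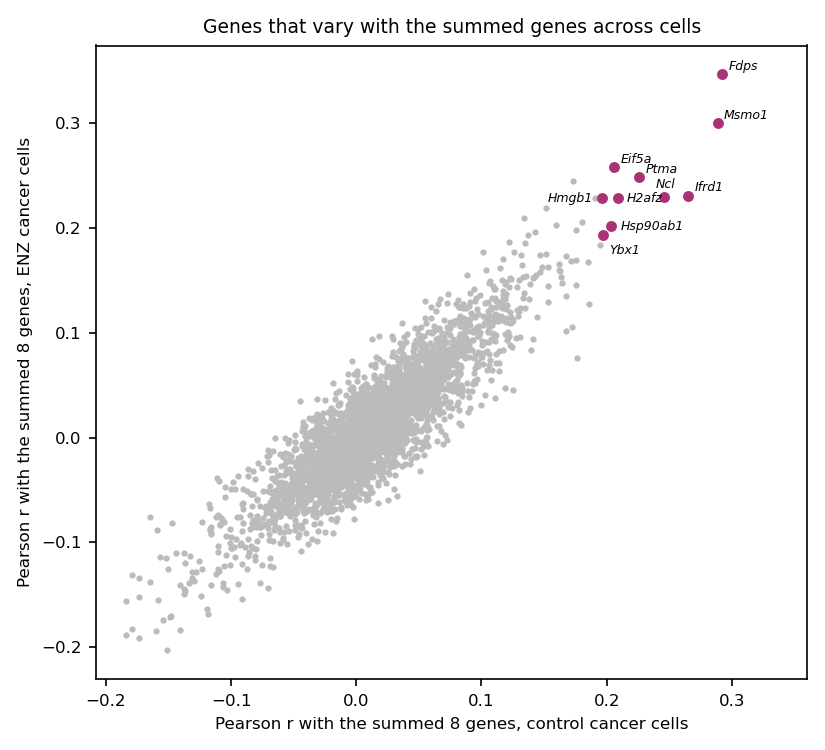
Pearson's r of each of 3494 genes with the summed 8 genes across thinned cancer cells, in the control library (x axis) and the ENZ library (y axis); the 10 genes with the highest lower value are named. Fdps and Msmo1 stand furthest from the bulk of genes, whose median is 0.01 in each library.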

How the data were processed

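The files deposited by the authors hold whole UMI counts for each gene in each barcode of 2 libraries, with neither cell calling nor normalization. The file header names Cell Ranger 7.2.0 and the submitters' processing notes name Cell Ranger 2.1.1 and mm10. Whether intronic reads were counted is not given in the sources used here.

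From these counts, UMIs were summed per library over the barcodes of each marker gate and scaled to CPM, with exact Poisson intervals around each. Ratios had exact conditional binomial intervals, quotients of ratios normal intervals on the log scale, and shares Clopper-Pearson intervals, all at 95%. No doublet caller was used in the reported values, and removal by scrublet (scanpy 1.11.5) was an alternative. Counts past the size rule (25% higher or 20% lower, or 2-fold between classes) used genes with a mean of at least 10 CPM over both sides. Positions came from GENCODE M21 on GRCm38 and promoters from RefSeq.

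The members and lists were chosen with earlier results of these data known. Genes named were the 8 members, the synthesis, SREBP control and uptake genes with a mean of at least 10 CPM in cancer cells, and the 10 genes most alike across cells, and further genes were chosen after their values were seen. Some genes of these lists are not reported here and were left out of the list counts, the ranking and the plots. Alternatives covered UMI and mitochondrial limits, gates, scaling, denominator, free RNA, doublets, depth and dividing cells. Steps were tested on simulated data. The tools were numpy 2.4.6, pandas 2.3.3 and scipy 1.17.1 under Python 3.11.15.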

Additional observations from a re-analysis of the deposited data

Results flagged for a closer look

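Over cancer cells, macrophages, monocytes and T cells, the classes compared here, 5 lipid genes outside the 8 members had ENZ to control ratios above 1 in some classes and below 1 in others, with counting intervals on opposite sides of 1. The difference between classes was not tested, since each class has 1 library a group.

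Scarb1, an HDL receptor gene, had a ratio of 1.27 in macrophages and 1.40 in monocytes but 0.924 in cancer cells. Abcg1, a cholesterol exporter gene, had 1.35 in cancer cells and 1.37 in T cells but 0.837 in macrophages. Acaca, for acetyl-CoA carboxylase, had 1.43 in cancer cells, 1.31 in macrophages and 1.71 in monocytes but 0.597 in T cells. Elovl6, a fatty acid elongase gene, had 1.36 in macrophages and 1.67 in T cells but 0.968 in cancer cells. Fads1, a fatty acid desaturase gene, had 1.34 in macrophages but 0.894 in cancer cells. Some intervals ended close to 1, as for Scarb1 in monocytes (1.004 to 1.97), Abcg1 in T cells (1.02 to 1.86) and Elovl6 in cancer cells (0.942 to 0.996). These intervals were not computed under other scalings.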

How the results depend on the processing

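No paired analysis was possible because each group has 1 library. No alternative turned the direction of a summed ratio. In cancer cells, 11 of 15 alternatives kept the summed log2 ratio of 0.24 within its counting interval, and it was 0.27 by averaging the CPM of single cells, 0.19 with median-of-ratios scaling, 0.30 without dividing cells and 0.50 in cells with no UMI of the dividing-cell genes. The count of 3 members past the rule (5.21% of all genes higher) was 0 at 1.5-fold, 1 with median-of-ratios scaling and 2 with a cancer gate of 10 UMIs. The share of all genes was not counted under those settings, so these counts have no background beside them. Of 7 members tested, the count was 3 without dividing cells (5.61% of all genes higher) and 6 in cells with no UMI of the dividing-cell genes (9.33%). In macrophages the log2 ratio of 0.37 was 0.26 by averaging the CPM of single cells, 0.29 with median-of-ratios scaling and 0.46 without cells with a Mmp12 UMI. In monocytes (0.32 to 0.43) and T cells (0.34 to 0.45) all 8 alternatives stayed within the interval. The log2 ratio of cancer cells to macrophages was 0.39 in the control library, and 0.23 by averaging the CPM of single cells and 0.14 with median-of-ratios scaling. In the ENZ library it was 0.25, and 0.0416 with median-of-ratios scaling. The log2 ratio of dividing to other cancer cells was 0.87 in the control library and 0.74 in cells of 15000 to 30000 UMIs. In the ENZ library it was 0.63, with 0.50 in those cells and 0.59 when rRNA-like, ribosomal protein and mitochondrial genes left the denominator. The cause of these shifts was not tested. Removing barcodes above a scrublet score of 0.25 (2.41% of control and 2.84% of ENZ barcodes) kept the summed ENZ to control ratios of the 4 classes within their intervals and the same members past the rule, and was not run on the ratios between classes or between dividing and other cells. Depth limits Lss most, with 3 and 8 UMIs in control and ENZ monocytes.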

Other observations

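Genes of cholesterol export and esterification were also measured. Abca1, a cholesterol exporter gene, measured 203 CPM in control against 299.6 CPM in ENZ macrophages, a ratio of 1.48 (1.39 to 1.58), with 292 and 456 CPM in neutrophils and 5.18 and 5.80 CPM in cancer cells. Apoe, for a lipoprotein secreted by macrophages, had 6603 and 4164 CPM in macrophages, a ratio of 0.631, and 52.0 and 25.8 CPM in cancer cells, while barcodes of 10 to 100 UMIs had 1707 and 879 CPM. The part of free RNA in the cancer cell values of Apoe was not tested. Soat1, whose enzyme esterifies cholesterol for storage, had 87.8 and 118 CPM in macrophages, a ratio of 1.34, and 136 and 114 CPM in neutrophils. Of the 7 export and esterification genes, 6 were tested in macrophages, where 3 were higher and 1 lower in the ENZ library, and 3 in cancer cells, where Apoe, at the levels given, was lower and none was higher. Over all genes tested 30.4% were higher and 11.4% lower in macrophages, and 5.21% and 4.05% in cancer cells.

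Fatty acid synthesis genes were higher in the ENZ library in 6 of 6 tested in macrophages, beside 30.4% of all genes, and in 2 of 8 in cancer cells, beside 5.21%. For Fasn in macrophages the interval spanned 1 (ratio 1.26, 0.983 to 1.60). Median-of-ratios scaling lowers log2 ratios in macrophages by 0.08, which takes Fasn (0.33) and Acaca (0.38) short of the rule there. Scd2, a desaturase gene, had 25.6 and 54.4 CPM in macrophages, a ratio of 2.13 (1.81 to 2.50), and 91.8 and 124 CPM in cancer cells, a ratio of 1.35 (1.32 to 1.39). Fasn had 54.0 and 64.1 CPM in cancer cells, a ratio of 1.19 (1.15 to 1.23).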
